A study of Mus musculus with 6 samples.

Results

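The 9 genes described here carry, start or restrain the growth signals that hepatocytes receive, and they were read across replicating and quiescent liver cells: the receptor genes Egfr, Erbb2, Erbb3, Met and Fgfr4, the co-receptor gene Klb, the ligand genes Tgfa and Hgf, and the feedback inhibitor gene Errfi1. They were chosen by symbol, as probe sets whose platform annotation names only that gene. All 9 had such a probe set, 1 each, among 19938 genes measured. The GFP-positive cells, labelled replicating, and the GFP-negative cells, labelled quiescent, were sorted from the livers of 3 weaned CyclinB1-GFP transgenic mice aged 3.5 weeks, so both groups carry the same reporter transgene and came from untreated animals as far as the labels say. Each group has 3 Affymetrix arrays. The labels name liver cells and no hepatocyte purification, and they do not give the promoter of the transgene or the genetic background.

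Hepatocytes are driven into the cell cycle mainly through receptor tyrosine kinases. EGFR answers to EGF, TGF-alpha and related ligands, ERBB2 has no ligand of its own and works as a dimer partner, and ERBB3 binds neuregulins but has a weak kinase. MET is the receptor of hepatocyte growth factor, and FGFR4 with its co-receptor beta-Klotho receives the gut hormone FGF15, which holds down bile acid synthesis and also acts on liver growth. Receptor activity runs through RAS and ERK, which induce inhibitors that act back on the pathway. ERRFI1, also called MIG6, is one of these and binds the kinase domain of EGFR.

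None of the 9 genes passed the test between GFP-positive and GFP-negative cells. Levels below are on the log2 intensity scale, with means given ± SD (n = 3 each). A difference is the GFP-positive mean less the GFP-negative mean, with its SE from limma, and its p was adjusted by the Benjamini-Hochberg method across the 19938 genes and called below 0.05. Of the 9 genes, 0 were called higher and 0 lower in that limma fit, against 1.55% and 0.115% of all genes, and 0 had an unadjusted p below 0.05, against 8.80% of all genes. In 0 of the 9 did the arrays of the groups separate without overlap, as they did in 13.8% of all genes. The differences lay between -0.39 (Errfi1) and 0.02 (Klb), with a median of -0.18, beside a median of -0.03 over all genes. 8 of the 9 lay below 0, as did 55.7% of all genes, and every 95% interval included 0. With 3 arrays a group, an exact permutation test of a single gene cannot give a two-sided p below 0.10. On simulated data, the limma fit called 0% of 50 genes given a change of 0.5, which is larger than each of the 9 differences. It called 70% of 50 genes given a change of 1. The changed genes were picked from all genes and their noise was independent between arrays, so these shares are not those of the 9 genes themselves.

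**Figure D1:**
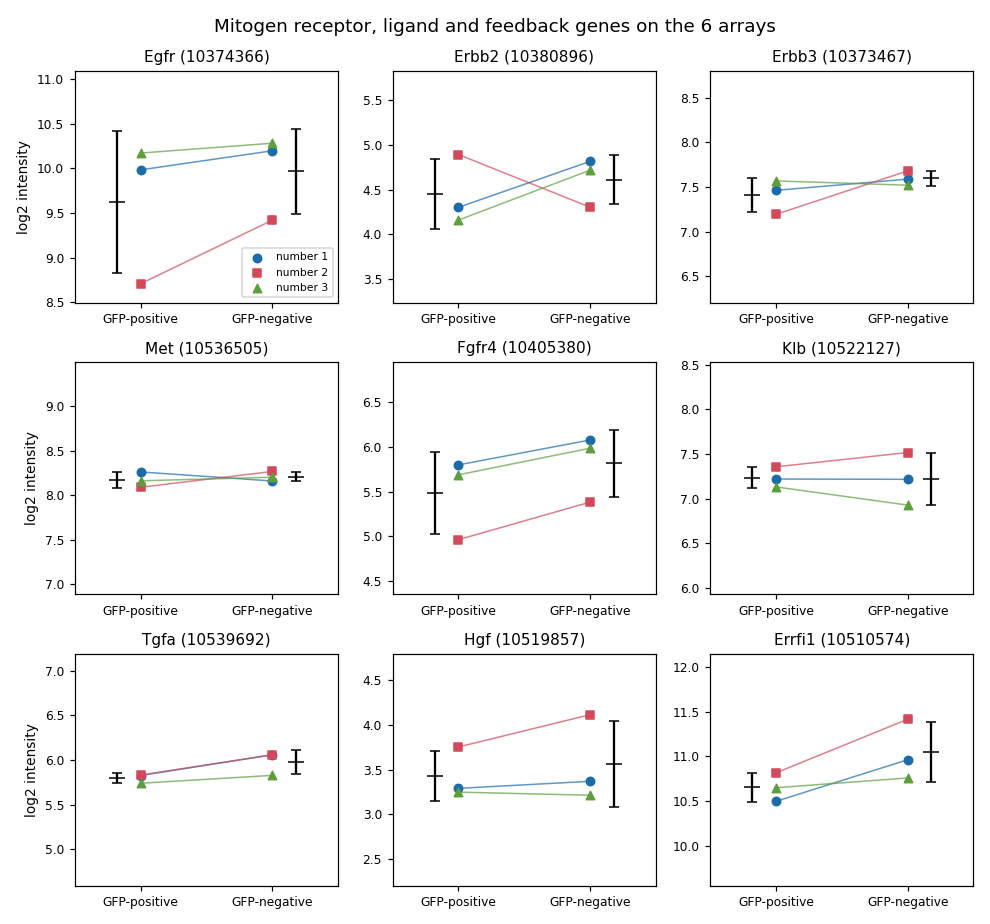
Log2 intensity of each of the 9 genes (panel titles give the gene and its probe set) in GFP-positive cells, on the left of each panel, and GFP-negative cells, on the right. Points are arrays, lines join arrays of the same replicate number, and black bars show mean and SD (n = 3); all panels span the same log2 range. The groups overlap in every panel, and the arrays of number 2 lie lowest of their group for Egfr and Fgfr4 and highest for Klb, Hgf and Errfi1.

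The sort and the cell content were checked on the same arrays. Cdk1, a kinase gene of mitotic entry, stood at 9.82 ± 0.13 in the GFP-positive and 5.31 ± 0.28 in the GFP-negative fraction (difference 4.51 ± 0.17, limma adjusted p = 1.2e-06). All 8 measured hepatocyte markers of 10 listed lay above the array medians, and their summed intensity ran from 46678 to 49048 in the GFP-positive and from 50281 to 53222 in the GFP-negative fraction. This sum was thus lower in GFP-positive arrays without overlap, and 7 of the 8 markers lay below 0 (median -0.13). The sums of 3 lists of other cell types also lay lower in GFP-positive arrays, without overlap and without a test of the sums: 452 to 502 against 571 to 643 for 14 stellate cell and fibroblast genes, 390 to 411 against 430 to 539 for 12 endothelial genes, and 226 to 245 against 265 to 326 for 12 Kupffer cell and macrophage genes. Of these marker lists, 1 gene was called, Clec4f of Kupffer cells (difference -0.68 ± 0.13, limma adjusted p = 0.032, or 0.077 with the replicate number as a block). Over all genes, 0.115% were called lower. Of the 12 Kupffer cell and macrophage genes 8 lay below 0 and 4 above (median -0.23), and 5 were below the array medians on all 6 arrays. Lists of 6 cholangiocyte, 10 lymphoid, 5 erythroid and 8 neutrophil markers had overlapping sums. In such sorted mixtures, fewer cells of a type and less RNA per cell cannot be told apart.

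In the EGF receptor family, Egfr varied mainly with the replicate number. Egfr (probe set 10374366) stood at 9.98, 8.71 and 10.17 in GFP-positive arrays 1, 2 and 3, against 10.20, 9.42 and 10.28 in GFP-negative arrays 1, 2 and 3. Number 2 was the lowest array of both groups, by 1.37 in the GFP-positive and 0.82 in the GFP-negative fraction below the mean of the other two, and the groups overlapped. The means were 9.62 ± 0.80 in the GFP-positive and 9.97 ± 0.48 in the GFP-negative fraction, a difference of -0.35 ± 0.37 (limma adjusted p = 0.89). The 95% interval of this fit, which did not pair the arrays, ran from 2.26-fold lower to 1.40-fold higher, the widest of the 9. With the replicate number as a block the SE of Egfr was 0.18 (limma adjusted p = 0.66). That of Erbb2, 0.23, was then the largest of the 9. Without GFP-positive 2 the Egfr difference turned to 0.11.

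Erbb2 (probe set 10380896), the ligandless partner, read 4.30, 4.89 and 4.16 in GFP-positive arrays, against 4.81, 4.30 and 4.72 in GFP-negative arrays. These values lay close to the median over all probe sets of an array, which ran from 4.60 to 4.74, with 4 of the 6 below it, and no detection call was used to tell such a level from background. The pairs disagreed: the difference within numbers 1, 2 and 3 was -0.51, 0.59 and -0.56. The group difference was -0.16 ± 0.22 (limma adjusted p = 0.92), with a 95% interval from 1.57-fold lower to 1.26-fold higher, and without both arrays of number 2 it was -0.54 (adjusted p = 0.28).

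Erbb3 (probe set 10373467), the neuregulin receptor, had 7.46, 7.19 and 7.57 in GFP-positive arrays, against 7.59, 7.68 and 7.52 in GFP-negative arrays. GFP-positive 2 was the lowest of the 6, while GFP-positive 3 lay above GFP-negative 3. The difference was -0.19 ± 0.15 (limma adjusted p = 0.84), within limits of 1.43-fold lower and 1.11-fold higher. Erbb4, the remaining family receptor, averaged 4.98 ± 0.14 in the GFP-positive and 5.09 ± 0.23 in the GFP-negative fraction (difference -0.11 ± 0.16, limma adjusted p = 0.92).

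Met had the narrowest interval of the 9 genes in the fit without the replicate block. Met (probe set 10536505), the receptor of hepatocyte growth factor, read 8.26, 8.09 and 8.16 in GFP-positive arrays, against 8.16, 8.27 and 8.20 in GFP-negative arrays. The arrays of both groups were interleaved between 8.09 and 8.27. The means were 8.17 ± 0.09 in the GFP-positive and 8.21 ± 0.05 in the GFP-negative fraction, and the difference was -0.04 ± 0.13 (limma adjusted p = 0.97). Its 95% interval reached from 1.26-fold lower to 1.19-fold higher, so a larger change in either direction lies outside it. With the replicate number as a block the SE of Met was 0.157, above those of Fgfr4 (0.153) and Tgfa (0.154).

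Neither gene of the FGF15 receptor pair passed, and Fgfr4 was low in number 2 of both fractions. Fgfr4 (probe set 10405380) was at 5.80, 4.96 and 5.69 in GFP-positive arrays, against 6.08, 5.38 and 5.99 in GFP-negative arrays. The GFP-positive array was lower within every number, with differences of -0.28, -0.42 and -0.30 in numbers 1, 2 and 3, yet the groups overlapped. The group difference was -0.33 ± 0.26 (limma adjusted p = 0.84, or 0.59 with the replicate number as a block), and the 95% interval ran from 1.87-fold lower to 1.18-fold higher. Without GFP-positive 2 the difference was -0.07.

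Klb (probe set 10522127), which encodes beta-Klotho, had 7.22, 7.36 and 7.13 in GFP-positive arrays, against 7.22, 7.52 and 6.93 in GFP-negative arrays. Every GFP-positive value lay within the GFP-negative range. The difference of 0.02 ± 0.17 (limma adjusted p = 0.99) was the only one of the 9 above 0, and it was -0.02 after quantile normalization, -0.01 after centring the arrays, -0.04 without GFP-positive 2 and -0.13 without GFP-negative 3. Its 95% interval ran from 1.29-fold lower to 1.32-fold higher.

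**Figure D2:**
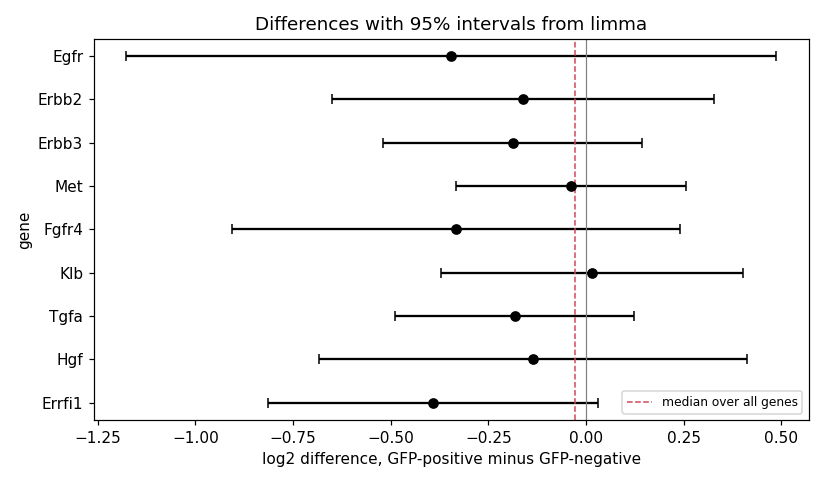
Log2 difference, GFP-positive minus GFP-negative, of the 9 genes (points) with 95% intervals from limma (bars, 3 arrays a group); the dashed line is the median over all genes, -0.03. All 9 intervals cross 0, from the narrow one of Met to the wide one of Egfr.

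Of the ligands, Tgfa was the one with signal above the array medians. Tgfa (probe set 10539692), an EGFR ligand that hepatocytes themselves make, read 5.83, 5.83 and 5.74 in GFP-positive arrays, against 6.06, 6.06 and 5.83 in GFP-negative arrays. The groups touched, since GFP-positive 1 and 2 stood level with GFP-negative 3. The means were 5.80 ± 0.05 in the GFP-positive and 5.98 ± 0.13 in the GFP-negative fraction, a difference of -0.18 ± 0.14 (limma adjusted p = 0.83) with limits of 1.40-fold lower and 1.09-fold higher.

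Hgf (probe set 10519857), which stellate and endothelial cells make for hepatocytes, had 3.29, 3.75 and 3.25 in GFP-positive arrays, against 3.37, 4.12 and 3.21 in GFP-negative arrays. It was the only one of the 9 below the median of all probe sets on every one of the 6 arrays, and its level was not told apart from background. Number 2 was highest in both groups. The difference was -0.14 ± 0.24 (limma adjusted p = 0.95), and it turned to 0.14 without GFP-negative 2. Of 14 stellate cell and fibroblast markers 13 lay below 0 (median -0.24), 0 passed the limma test, 4 had an unadjusted p below 0.05 and 4 were below the array medians on all 6 arrays. Of 12 endothelial markers 10 lay below 0 (median -0.15), 0 passed and 2 had an unadjusted p below 0.05. Over all genes, 55.7% lay below 0 and 8.80% had an unadjusted p below 0.05. Their part in the Hgf reading was not tested.

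Errfi1 had the largest difference of the 9 with all arrays, and it did not pass. Errfi1 (probe set 10510574) was at 10.50, 10.82 and 10.65 in GFP-positive arrays, against 10.96, 11.41 and 10.76 in GFP-negative arrays. GFP-negative 3 lay just below GFP-positive 2, and the other arrays separated by group. The means were 10.65 ± 0.16 in the GFP-positive and 11.04 ± 0.34 in the GFP-negative fraction, 1.31-fold lower (difference -0.39 ± 0.19, unadjusted p = 0.065, limma adjusted p = 0.60). The 95% interval ran from 1.76-fold lower to 1.02-fold higher, and 4.52% of all genes had a difference at or below that of Errfi1. Leaving out 1 array moved it between -0.54 and -0.21, with the smallest value without GFP-negative 2. There Egfr (-0.62), Fgfr4 (-0.55) and Erbb2 (-0.32) differed more. Errfi1 was also exceeded in size by Fgfr4 with quantile normalization (-0.41 against -0.38), and by Egfr and Fgfr4 without GFP-positive 1 or 3. Without both arrays of number 2, Erbb2 (-0.54) and, barely, Fgfr4 (-0.288) exceeded Errfi1 (-0.287). With the replicate number as a block the unadjusted p was 0.044 and the adjusted p 0.53.

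Within replicate numbers, which are taken to mark a mouse, 4 of the 9 genes were lower in GFP-positive cells in all 3 numbers, against 15.3% of all genes. They were Egfr, Fgfr4, Tgfa and Errfi1. The 3 differences of Errfi1 were -0.47, -0.60 and -0.11, those of Tgfa -0.23, -0.23 and -0.09, and those of Egfr -0.21, -0.71 and -0.11. The 9 genes share the same arrays, so these signs are not independent of each other. Number 2 stood apart in both fractions also by its sex-linked genes, with Xist at 9.80 in the GFP-positive and 9.03 in the GFP-negative fraction and at most 4.04 in the other 4 arrays. With 1 such mouse, what is particular to it and its sex cannot be told apart.

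**Figure D3:**
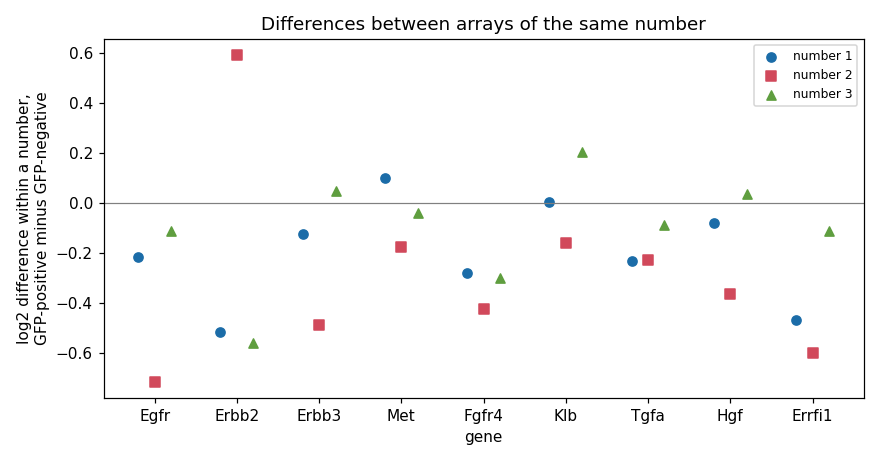
Log2 difference between the GFP-positive and the GFP-negative array of the same replicate number, for the 9 genes; each point is 1 number. Egfr, Fgfr4, Tgfa and Errfi1 have all 3 points below 0, and Erbb2 has number 2 at 0.59 and numbers 1 and 3 at -0.51 and -0.56.

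The genes whose pattern over the 6 arrays was most like that of the 3 most variable members followed the low or high number 2. Over 9591 genes at or above the median level, Egfr was closest to Uso1, a vesicle tethering factor gene, and Sgsm3 (Pearson's r = 0.998 and 0.997, Spearman's rho = 1 for each). Fgfr4 was closest to Tor1aip2, a torsin-binding membrane protein gene, and Me1, the cytosolic malic enzyme gene (r = 0.994 and 0.991, rho = 1 for each). Hgf was closest to Gadd45g, a stress-induced growth arrest gene, and Mga, a MAX-binding factor gene (r = 0.993 and 0.984, rho = 0.829 and 0.943). These are descriptions over 6 arrays of 3 mice, in which 2 arrays of 1 mouse set most of the spread, and with so many genes high values are found by search alone.

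Promoter sequences are printed for Errfi1, with the largest difference over all arrays. Those of Egfr, with the widest interval in the fit without the replicate block, and of Met, with the narrowest, are also printed. The sequences are RefSeq windows of build GRCm38.p6, 250 bases before to 50 after a start. Such windows were found for 8 of the 9 genes (all but Erbb3), in 10 windows. AP-1 sites (TGANTCA) and cyclic AMP response elements (CRE, TGACGTCA), where factors downstream of growth signals are known to bind, were searched on both strands, and the letters do not allow a match of one to be a match of the other. Capitals mark the matches. Errfi1 has 2 windows, of which the downstream one holds a CRE beginning 51 bases before the start, and Met holds an AP-1 match beginning 54 bases before the start. Over 32851 windows of the same length, 1.79% hold the CRE and 7.81% the AP-1 letters, and each was found in 1 of the 10 windows. A match is a description of letters and shows no binding.
Errfi1, chr4:150853546-150853845, plus strand: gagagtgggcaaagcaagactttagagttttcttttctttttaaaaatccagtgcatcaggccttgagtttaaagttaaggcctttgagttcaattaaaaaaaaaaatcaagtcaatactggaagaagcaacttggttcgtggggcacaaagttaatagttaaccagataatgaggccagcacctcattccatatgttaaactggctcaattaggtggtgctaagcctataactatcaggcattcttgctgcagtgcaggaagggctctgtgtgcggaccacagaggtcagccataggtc
Errfi1, chr4:150854820-150855119, plus strand: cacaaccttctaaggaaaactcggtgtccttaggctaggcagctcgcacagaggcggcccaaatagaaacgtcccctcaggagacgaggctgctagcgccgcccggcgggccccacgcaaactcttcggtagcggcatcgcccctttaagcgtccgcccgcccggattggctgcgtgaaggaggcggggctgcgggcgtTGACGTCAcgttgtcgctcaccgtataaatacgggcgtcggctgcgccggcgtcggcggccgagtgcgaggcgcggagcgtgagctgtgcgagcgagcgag
Met, chr6:17463707-17464006, plus strand: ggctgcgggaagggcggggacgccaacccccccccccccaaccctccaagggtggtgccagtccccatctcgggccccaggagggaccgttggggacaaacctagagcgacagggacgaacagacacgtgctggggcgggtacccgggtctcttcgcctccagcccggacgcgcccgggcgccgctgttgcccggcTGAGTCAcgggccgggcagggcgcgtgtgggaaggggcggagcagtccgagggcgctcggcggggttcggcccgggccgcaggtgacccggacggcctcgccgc
Egfr, chr11:16751953-16752252, plus strand: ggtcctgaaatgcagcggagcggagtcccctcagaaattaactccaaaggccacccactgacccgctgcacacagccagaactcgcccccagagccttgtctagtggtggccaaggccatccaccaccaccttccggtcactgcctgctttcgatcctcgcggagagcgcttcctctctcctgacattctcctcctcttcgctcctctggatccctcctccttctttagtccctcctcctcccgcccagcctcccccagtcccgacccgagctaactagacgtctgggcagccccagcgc

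Around the 9 genes, 9 lists of receptors, ligands, activators, signal carriers, inhibitors and targets held 120 measured genes of 131 listed, 111 of them other than the 9. Of these 111, 0 were called higher and 1 lower, against 1.55% and 0.115% of all genes, and 70 lay below 0, as did 55.7% of all genes. The gene that passed was Phlda1, an ERK-induced pleckstrin-homology domain gene. Phlda1 (probe set 10366346) read 8.10, 8.02 and 7.78 in GFP-positive arrays, against 8.80, 8.93 and 8.62 in GFP-negative arrays. All 3 GFP-positive arrays lay below all 3 GFP-negative ones, at 7.97 ± 0.16 in the GFP-positive and 8.78 ± 0.16 in the GFP-negative fraction. It fell 1.76-fold (difference -0.82 ± 0.15, limma adjusted p = 0.026). The call was lost without any of 5 single arrays: the adjusted p was 0.11 when GFP-negative 1 was left out and 0.096 when GFP-negative 2 was, and leaving out GFP-positive 1, 2 or 3 gave 0.062, 0.065 or 0.13, while the difference stayed between -0.90 and -0.73.

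The rest of the ERK-induced list did not pass. Of its 15 genes, Phlda1 fell and 0 rose, 12 lay below 0 and the median was -0.18, beside -0.03 over all genes. Egr1, an immediate early zinc finger gene, averaged 6.50 ± 0.53 in the GFP-positive and 7.11 ± 0.22 in the GFP-negative fraction (difference -0.61 ± 0.25, limma adjusted p = 0.50). Junb, a subunit of AP-1, averaged 5.25 ± 0.33 in the GFP-positive and 5.78 ± 0.12 in the GFP-negative fraction (difference -0.53 ± 0.18, limma adjusted p = 0.35). Myc and Ccnd1, also singled out after their values were seen, differed more in size, but their groups overlapped. The difference of Myc was -0.82 ± 0.49 (limma adjusted p = 0.74, or 0.10 with the replicate block). That of Ccnd1 was -0.65 ± 0.34 (limma adjusted p = 0.67, or 0.46 with the replicate block). GFP-negative 2 set most of it, at 7.92 for Ccnd1 while every other array lay between 6.19 and 6.50. The Ccnd1 differences within numbers 1, 2 and 3 were -0.12, -1.50 and -0.31. Egr1 and Junb, together with Btc and Plcg1 below, were chosen after their values were seen, because with Phlda1 they are the 5 of the 111 with an unadjusted p below 0.05. Over all genes, 8.80% had such a p, a larger share.

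Among feedback inhibitors 0 of 33 passed, and 21 lay below 0 (median -0.10). Socs2, a suppressor of growth hormone receptor signalling, had the largest difference of that list, at 7.15, 5.47 and 6.08 in GFP-positive arrays, against 7.71, 6.17 and 7.39 in GFP-negative arrays. The GFP-positive array was lower within every number, but both fractions of number 2 were low and the groups overlapped (difference -0.86 ± 0.46, limma adjusted p = 0.67, or 0.069 with the replicate block). The Socs2 difference was -1.32 without GFP-negative 2 or without GFP-positive 1, -0.55 without GFP-negative 1 and -0.47 without GFP-positive 2, and the mean of its 2 probe sets gave -0.44. Spry4, a Sprouty inhibitor of receptor signalling, did not overlap between the groups, at 5.66 ± 0.06 in the GFP-positive and 5.87 ± 0.11 in the GFP-negative fraction, yet its difference was small (-0.21 ± 0.13, limma adjusted p = 0.78). It was singled out after its values were seen, as 1 of 2 genes of that list without overlap, while 13.8% of all genes had none.

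Among EGF family ligands 0 of 10 measured passed, with 6 above 0 and a median of 0.05, and 4 of the 10 (Egf, Ereg, Epgn and Nrg3) lay below the array medians on all 6 arrays. Nrg4, a neuregulin that binds ERBB4, read 5.74, 6.23 and 6.05 in GFP-positive arrays, against 4.81, 6.55 and 4.85 in GFP-negative arrays. GFP-negative 2 stood above every other array while GFP-negative 1 and 3 stood below all of them, and the difference was 0.61 ± 0.40 (limma adjusted p = 0.79). Without GFP-negative 2 it was 1.18 (adjusted p = 0.013), and without both arrays of number 2 it was 1.07 (adjusted p = 0.029). The other way, it was 0.31 without GFP-negative 1 (adjusted p = 0.97) and 0.33 without GFP-negative 3 (adjusted p = 0.90). Btc, which encodes the EGFR ligand betacellulin, averaged 5.59 ± 0.16 in the GFP-positive and 5.22 ± 0.17 in the GFP-negative fraction (difference 0.37 ± 0.15, limma adjusted p = 0.51). Its groups did not overlap, as in 13.8% of all genes.

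The ligand-shedding list had 4 of 5 genes above 0 and 0 that passed (median 0.19). Its largest difference was that of Adam10, a membrane protease that releases EGF family ligands, with 6.71, 6.40 and 6.41 in GFP-positive arrays, against 5.96, 6.15 and 6.39 in GFP-negative arrays. GFP-positive 2 and 3 lay just above GFP-negative 3 (difference 0.34 ± 0.16, limma adjusted p = 0.60).

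The remaining lists had 0 genes that passed. In the list of HGF, its relative MSP and their receptors and proteases, 8 of 12 genes lay below 0 (median -0.05), and Mst1, the gene of MSP, differed most (-0.39 ± 0.22, limma adjusted p = 0.70). In the FGF list 11 of 14 lay below 0 (median -0.07), and the largest difference beside that of Fgfr4 was that of Fgfr1 (-0.29 ± 0.18, limma adjusted p = 0.76). Of 14 measured adaptor and RAS-ERK genes 9 lay below 0 (median -0.07), with the phosphatase gene Ptpn11 at 0.39 ± 0.18 (limma adjusted p = 0.60) and the phospholipase gene Plcg1 at -0.33 ± 0.13 (limma adjusted p = 0.51). Of 13 measured PI3K and AKT genes 8 lay below 0 (median -0.06), led by Tsc2, an inhibitor of mTOR signalling, at -0.27 ± 0.19 (limma adjusted p = 0.80). The other 11 listed genes were not analysed here, and the counts say nothing about them.

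**Figure D4:**
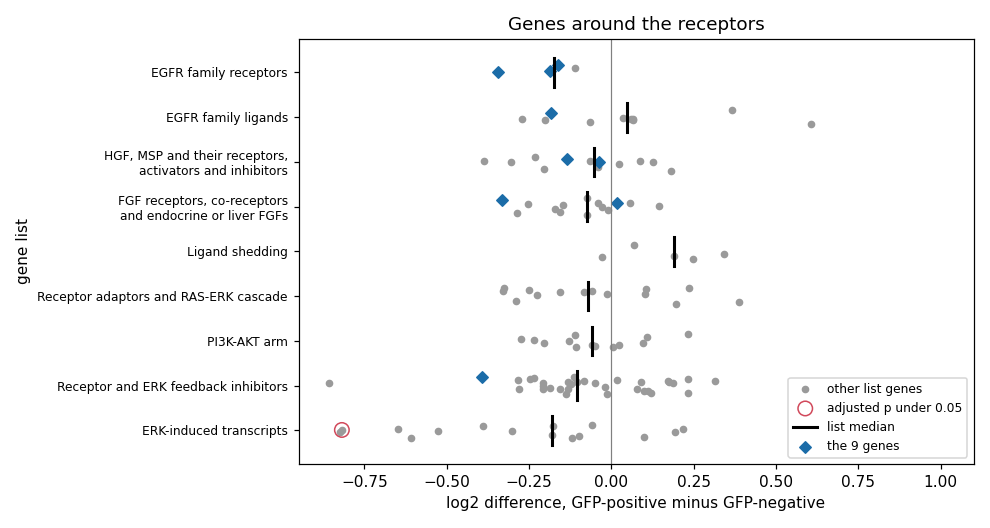
Log2 difference, GFP-positive minus GFP-negative, of every measured gene of the 9 lists (1 row a list, points spread vertically for legibility). Diamonds are the 9 genes, the black tick is the list median and the circle marks the single gene with an adjusted p below 0.05, Phlda1 at -0.82.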

How the data were processed

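RNA of 3 GFP-positive and 3 GFP-negative sorted cell samples was amplified and hybridised to Affymetrix arrays, per the labels' protocols. The authors deposited an intensity for each probe set on each array and used RMA, per the submitters' processing notes, with version and settings not given in the sources used. The deposited intensities are linear (1.62 to 15836, array medians 24.3 to 26.7), so log2 was taken and nothing else was normalized. No detection calls were used here, and precision is limited by the number of arrays.

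Of 35512 probe sets, 21789 have 1 symbol in the platform annotation, 1621 have several and 12102 none. Current symbols were looked up through Entrez identifiers for 21698 probe sets (GRCm38.p6 table, names only), a count that includes names left unchanged. Each of 19938 genes was represented by its brightest probe set. No filter on low values was applied. Differences come from limma 3.58.1 (R 4.3.3), with lmFit and eBayes (4 residual and 5.44 prior degrees of freedom) fitted over all genes, which were tested on simulated data. There, 0%, 70%, 90% and 100% of genes changed by 0.5, 1, 2 and 3 were called in the right direction (50 genes a size). Python 3.11.15 with pandas 2.3.3 and numpy 2.4.6 made the tables, and matplotlib 3.10.9 the plots.

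The 9 genes and the lists were chosen with earlier results of these data known. Genes outside the 9 were named by a rule: the called genes of a list, up to 2 each way, or otherwise the gene with the largest difference, and the 2 genes most like each of the 3 most variable members. Exceptions are marked.

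Replicate numbers were taken to pair arrays of 1 mouse, since the design text gives 3 individual livers as the source of both fractions and the sex-linked genes match for number 2. No label says so directly, and across genes the correlation of same-numbered arrays, after the group means were removed, was 0.20, 0.06 and -0.05 for numbers 1, 2 and 3.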

Additional observations from a re-analysis of the deposited data

How the results depend on the processing

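Under 16 alternatives, 0 of the 9 genes were called in any, and 0 of the 9 passed at an adjusted p below 0.10. The number of the 9 with an unadjusted p below 0.05 was 0 or 1. The lowest adjusted p any of the 9 reached was 0.26 (Errfi1, with array weights). The replicate block left the differences as they were, with adjusted p between 0.53 and 0.99 for the 9, and among the genes named it ended the call of Clec4f alone (adjusted p = 0.077). Erbb2, Erbb3, Fgfr4, Tgfa and Errfi1 kept their direction in all of them. Klb lay at -0.023 with quantile normalization, -0.014 with centred arrays and -0.033 with array weights, and Met at 0.0094 with array weights and 0.030 without number 2. Leaving out 1 array gave -0.62 to 0.11 for Egfr, -0.084 to 0.0018 for Met, -0.13 to 0.16 for Klb and -0.31 to 0.14 for Hgf. Hgf has no value where the dimmest genes were left out. Over all genes, 333 were called, 310 higher and 23 lower. The lower count was 38 with quantile normalization, 13 with centred arrays, 6 of all probe sets tested alone, 53 with array weights, 46 at a threshold of 0.10 and 9 without number 2, and leaving out 1 array gave 6 to 29. The cause was not tested, except that fewer arrays, more tests or a looser threshold enter by construction. Phlda1 was also not called with all probe sets tested alone (adjusted p = 0.098) or without number 2 (0.14).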

Other observations

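A second probe set for Erbb2 (10504755) also names Sympk, a gene of mRNA 3' end processing, in the platform annotation, and was therefore left out of the comparison. It read 2.85, 3.03 and 2.93 in GFP-positive arrays, against 2.76, 2.71 and 3.04 in GFP-negative arrays, below the array medians on all 6 arrays. Its log2 difference was 0.10 ± 0.14 (limma adjusted p = 0.93 over all probe sets).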
